A study of Homo sapiens with 4 samples.

Results

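The genes described here are 7 members of the cell's system for tagging and extracting faulty proteins: UBB, ZFAND2A, ZFAND2B, ZFAND5, VCP, UFD1L (now named UFD1) and NPLOC4, out of 57820 genes counted and 16468 tested. They were selected by name, with their response to the compound SGSS05-NS in these same libraries already known, so their differences between treated and control cells are given as a description and not as a test. The cells were SY5Y, an established human neuroblastoma line whose MYCN gene is not amplified, and 1 cell line was all that was compared. Of 4 RNA-seq libraries, 2 came from cells given the vehicle DMSO and 2 from cells given SGSS05-NS at 3 μM, all for 12 h. The labels name the compound SGSS05-NS, and it was taken here to be the SGSS05-NS3 of the study. The study also uses the name SGSS05-NS for a member of the same compound series. It describes SGSS05-NS3 as a covalent inhibitor of SETD8 (KMT5A). SETD8 is the enzyme that puts a single methyl group on lysine 20 of histone H4. In the study's assays SGSS05-NS3 also inhibited other methyltransferases at micromolar concentrations. The dose is the one on the labels. The study gives the same dose in a figure legend and a lower one in its methods for these cells. Replicates are described in the methods as independent biological repeats.

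Ubiquitin is a small protein that is joined to other proteins through a chain of E1, E2 and E3 enzymes, and a chain of ubiquitins marks a protein for destruction by the proteasome. VCP (p97) is a ring-shaped ATPase that pulls ubiquitin-tagged proteins out of membranes and complexes, and the pair UFD1 and NPL4 (the products of UFD1L and NPLOC4) delivers them to it. The ZFAND proteins carry zinc fingers of the AN1 type, and some of them sit at the proteasome or at VCP when proteins misfold. ZFAND2A (AIRAP) is known as a stress-inducible adaptor of the proteasome, first described after arsenite, whereas its close relative ZFAND2B (AIRAPL) is present constitutively and is anchored in membranes.

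In these libraries ZFAND2A had the largest difference of the 7 genes, with a level 13.3-fold higher in SGSS05-NS than in DMSO. UBB, ZFAND5, VCP and NPLOC4 were between 1.27-fold and 1.56-fold higher, and ZFAND2B and UFD1L were 1.15-fold and 1.07-fold higher. At an adjusted p-value under 0.001 (edgeR quasi-likelihood test, Benjamini-Hochberg over all genes tested), 3 of the 7 were called higher, namely UBB, ZFAND2A and ZFAND5, and 0 lower. Of all genes tested, 6.37% were called higher and 8.14% lower. At an adjusted p-value under 0.05, 5 of the 7 were called higher, against 22.6% of all genes. In each of the 7 genes both SGSS05-NS libraries lay above both DMSO libraries, as they did in 37.8% of all genes. Since the genes were chosen from this contrast, nothing is read from these counts. The median log2 fold change was 0.47 over the 7 genes and 0.01 over all genes tested.

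**Figure D1:**
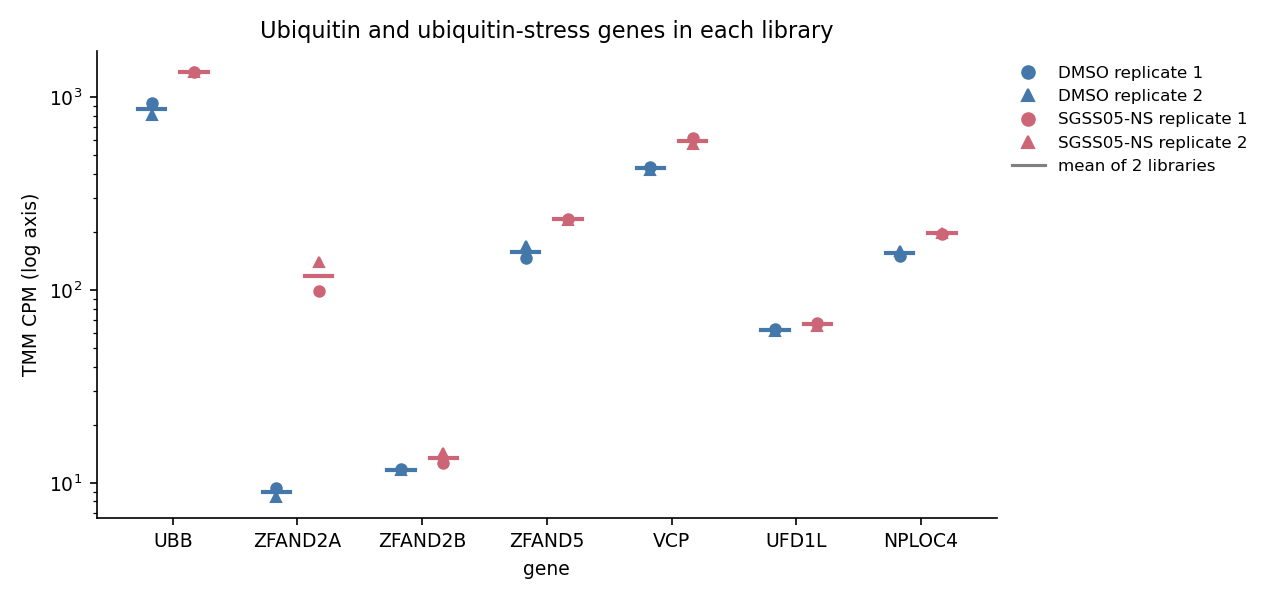
Normalized level (TMM CPM, log axis) of the 7 genes in each library. Circles and triangles are replicates 1 and 2, blue for DMSO and red for SGSS05-NS, and lines are means of 2 libraries. ZFAND2A goes from 8.47 and 9.41 CPM in DMSO to 98.6 and 139 CPM with SGSS05-NS, while UFD1L stays between 61.1 and 67.3 CPM.

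The libraries held between 21463105 and 25350204 fragments assigned to genes on the gene's own strand. The share outside annotated exons was larger with the compound (15.3% and 16.1%) than with DMSO (12.3% and 12.4%), and its part in the results was not tested. All 12 neuroblast markers checked (among them HAND2, GATA3 and DBH) were detected in both DMSO libraries. At an adjusted p-value under 0.001 (edgeR quasi-likelihood test), 8 of the 11 tested were called lower with SGSS05-NS and 0 higher. Of all genes tested, 8.14% were called lower and 6.37% higher. The summed level of the 12 markers was 4944 to 5351 CPM in DMSO and 2982 to 3040 CPM with the compound. In RNA from whole cultures, fewer cells of a type and less RNA per cell cannot be told apart. Markers of other cell types summed to lower levels, but many were detected. The 7 fibroblast markers summed to between 49.2 and 82.3 CPM. Of these, 5 were detected in both DMSO libraries, and DCN and PRRX1 were at 0. The 4 glial markers summed to at most 2.03 CPM, with 3 detected in both DMSO libraries and SOX10 at 0. The 4 immune markers summed to at most 0.18 CPM, with 0 detected in both DMSO libraries and CD3E at 0. The 3 epithelial markers summed to at most 3.61 CPM, with 2 detected in both DMSO libraries and KRT5 at 0. KMT5A, which encodes SETD8, was higher with SGSS05-NS, from 1371 and 1327 fragments to 1838 and 1951 (log2 fold change 0.57 ± 0.09 (SE), adjusted p = 0.00037).

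UBB (chr17:16284112-16286059, plus strand, GRCh37) encodes a ubiquitin precursor, in which 3 copies of ubiquitin follow each other head to tail without a break and are cut apart after translation. The copies lie in 1 exon and are shown here because their likeness governs where a short read can be placed. In the later copies, capitals mark each base that differs from the first copy at the same position. The sequences were read from the GRCh37 genome, plus strand, at chr17:16285222-16285449, chr17:16285450-16285677 and chr17:16285678-16285905.
UBB copy 1: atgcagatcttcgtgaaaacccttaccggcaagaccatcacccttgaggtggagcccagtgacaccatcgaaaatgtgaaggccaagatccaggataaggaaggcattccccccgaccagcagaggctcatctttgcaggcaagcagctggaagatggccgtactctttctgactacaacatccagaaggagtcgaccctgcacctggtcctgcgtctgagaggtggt
UBB copy 2: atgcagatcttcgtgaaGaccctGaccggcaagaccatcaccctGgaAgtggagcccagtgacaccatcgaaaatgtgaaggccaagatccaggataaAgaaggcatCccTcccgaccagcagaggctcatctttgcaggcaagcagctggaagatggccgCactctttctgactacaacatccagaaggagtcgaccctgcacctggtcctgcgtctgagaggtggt
UBB copy 3: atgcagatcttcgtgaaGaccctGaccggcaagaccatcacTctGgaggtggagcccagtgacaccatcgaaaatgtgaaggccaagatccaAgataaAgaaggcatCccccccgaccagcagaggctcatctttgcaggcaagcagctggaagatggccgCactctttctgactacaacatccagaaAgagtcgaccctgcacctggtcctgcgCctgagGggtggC
Copy 2 differed from copy 1 at 8 of 228 bases (96.5% identity) and copy 3 at 12 (94.7% identity). Elsewhere in the genome, stretches of at least 100 bases with at least 95% identity covered 90.1% of the UBB reference transcript, in 2 places. Fragments that map equally well to several places were not assigned to a gene, so the level of UBB may be counted too low.

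UBB received 23337 and 18818 fragments in DMSO and 30016 and 31774 with SGSS05-NS, which are 930 and 805.5 CPM in DMSO and 1352 and 1351 CPM with the compound after scaling. The 2 treated libraries were nearly alike and both lay above the control libraries, which differed more from each other. The log2 fold change was 0.64 ± 0.10 (SE, n = 2 per group), from 868 ± 88.1 CPM (SD) to 1352 ± 1.07 CPM. Of the UBB pseudogenes, UBBP4 on chromosome 17 had the most fragments, and it went the other way, with 111 in each DMSO library and 61 and 64 in the SGSS05-NS libraries (log2 fold change −0.74 ± 0.20, adjusted p = 0.0098). The other UBB pseudogenes had at most 17 fragments in any library. Reads shared between UBB and its copies make both levels uncertain.

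An annotated long non-coding RNA gene, ENSG00000265401 (chr17:16285466-16285983, minus strand), lies on the opposite strand over copies 2 and 3 of UBB. On its own strand it had 4, 6, 3 and 4 fragments in DMSO replicates 1 and 2 and SGSS05-NS replicates 1 and 2. UBB in turn had between 4 and 8 fragments on the strand opposite to it, at most 0.0425% of the fragments at the gene. Counted without regard to strand, however, a fragment that touches both genes belongs to neither, and UBB kept 5908 and 4581 fragments in DMSO and 7061 and 5870 with SGSS05-NS, between 18.5% and 25.3% of the stranded counts. Setting columns side by side gives approximate portions of UBB. Those that touched the opposite gene were taken from fragments counted against that gene's strand, and those that did not from the count without regard to strand, which includes the few opposite-strand fragments, so the portions add to slightly more than the stranded count. The portion that touched it went from 652 ± 60.3 CPM (SD, n = 2) to 1068 ± 47.3 CPM, a ratio of 1.64. The portion that did not touch it went from 216 ± 27.9 CPM to 284 ± 48.5 CPM, a ratio of 1.32, with 235.5 and 196 CPM in the DMSO libraries and 318 and 249.6 CPM in the SGSS05-NS libraries. Both portions were higher in both treated libraries, and SGSS05-NS replicate 2 differed from the other 3 libraries in the share that touched the opposite gene, with 81.5% against 74.7% to 76.5%. Without regard to strand, the log2 fold change of UBB was 0.36 ± 0.13 and the gene was not called. It was also not called when DMSO replicate 2 was left out (log2 fold change 0.52 ± 0.16).

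**Figure D2:**
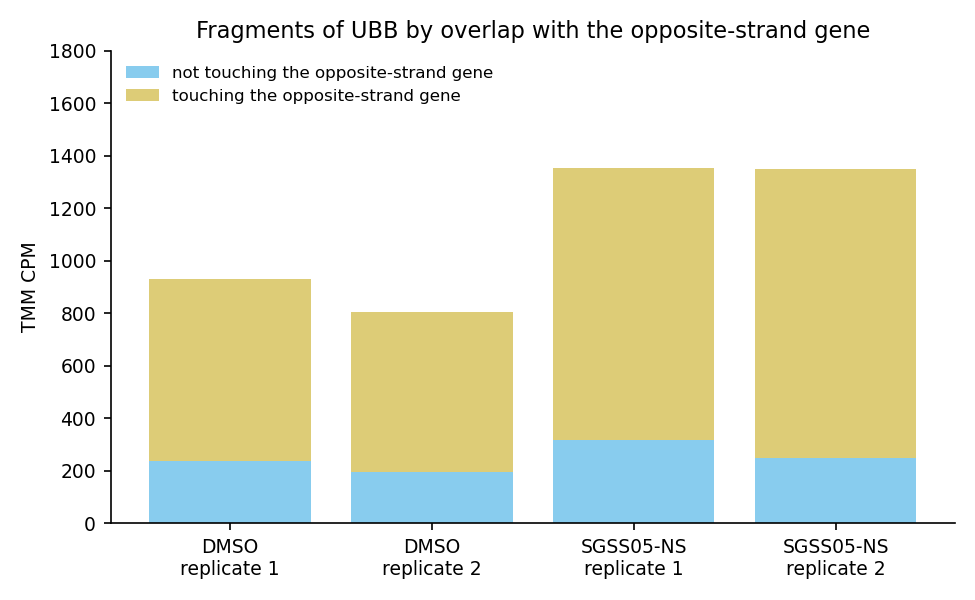
Fragments of UBB as TMM CPM (axis from 0) in each library, split approximately by whether they touch the exons of the annotated gene on the opposite strand. Most UBB fragments, 74.7% to 81.5%, touch it, and these are the ones that a count without regard to strand drops.

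RPS27A, which encodes a ubiquitin fused to a ribosomal protein, was set beside UBB. It had 21649 and 20353 fragments in DMSO and 18685 and 22003 with SGSS05-NS, or 863 and 871 CPM against 842 and 935.5 CPM. The groups overlapped, and the gene was not called (log2 fold change 0.04 ± 0.10, adjusted p = 0.79). Near copies in 3 places elsewhere in the genome covered 68.9% of the RPS27A reference transcript, so its level may also be counted too low.

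ZFAND2A (chr7:1191707-1200395, minus strand) had 236 and 198 fragments in DMSO and 2188 and 3272 in the SGSS05-NS libraries, or 9.41 and 8.47 CPM against 98.6 and 139 CPM. The groups were far apart, and the 2 treated libraries differed from each other more than the control libraries did. The log2 fold change was 3.73 ± 0.16 (SE), and over the 13 alternative settings tried it lay between 3.46 and 3.95. Ranked from the most positive log2 fold change down, ZFAND2A was the 73rd of 16468 genes. A divergent long non-coding RNA gene, ZFAND2A-DT (chr7:1200010-1205243, plus strand), starts within ZFAND2A and runs the other way. It had 125 and 135 fragments in DMSO and 105 and 117 with SGSS05-NS (log2 fold change −0.15 ± 0.18, adjusted p = 0.54). Opposite-strand fragments over ZFAND2A itself numbered 9 and 12 in DMSO and 21 and 32 with SGSS05-NS, but their share of the fragments at the gene was lower with the compound, 0.951% and 0.969% against 3.67% and 5.71% in DMSO.

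ZFAND2B (chr2:220059959-220074373, plus strand) had 295 and 271 fragments in DMSO and 280 and 336 with SGSS05-NS, or 11.8 and 11.6 CPM against 12.6 and 14.3 CPM. The treated libraries lay just above the controls, and the log2 fold change of 0.20 ± 0.14 was not called. ABCB6, a transporter gene that ends next to ZFAND2B on the minus strand (chr2:220074494-220083716), had 49 and 45 fragments in DMSO and 88 and 99 with the compound (log2 fold change 1.07 ± 0.22, adjusted p = 0.0019, not called). Opposite-strand fragments over ZFAND2B numbered 16 and 30 in DMSO and 50 and 58 with SGSS05-NS, 5.14% and 9.97% against 15.2% and 14.7% of the fragments at the gene. Whether these opposite-strand fragments come from ABCB6 was not tested.

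ZFAND5 (chr9:74966329-74980151, minus strand) encodes a protein with an A20-type and an AN1-type zinc finger that is known to stimulate the proteasome in wasting muscle. It had 3691 and 3930 fragments in DMSO and 5172 and 5445 with SGSS05-NS, or 147 and 168 CPM against 233 and 231.5 CPM. The treated libraries agreed closely and lay above both controls, with a log2 fold change of 0.56 ± 0.10. Without DMSO replicate 1 it was 0.46 ± 0.14 and no longer called, and from counts without regard to strand it was 0.52 ± 0.10 and not called. Near copies elsewhere in the genome covered 23.1% of its reference transcript.

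The log2 fold changes of the other ZFAND genes lay between −0.97 and 0.16. Of the 7 genes of the family, all tested, 2 were called higher (the ZFAND2A and ZFAND5 described above) and 1 lower. Among all genes tested, 6.37% were called higher and 8.14% lower. Since ZFAND2A and ZFAND5 were chosen with this contrast known, nothing is read from the count. The median log2 fold change of the family was 0.16. ZFAND3 was the one that was lower, with 40.8 and 48.9 CPM in DMSO and 23.0 and 22.7 CPM with SGSS05-NS (log2 fold change −0.97 ± 0.12, adjusted p = 4.6e-05). ZFAND6 had 52.9 and 53.4 CPM in DMSO and 42.4 and 42.5 CPM with SGSS05-NS and was not called (−0.32 ± 0.09, adjusted p = 0.014). For ZFAND4 the values were 10.04 and 9.25 CPM against 10.4 and 11.1 CPM (0.16 ± 0.14, adjusted p = 0.39). The groups of ZFAND1 overlapped, at 32.8 and 34.7 CPM in DMSO and 29.6 and 36.3 CPM with SGSS05-NS (−0.03 ± 0.12, adjusted p = 0.85).

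VCP (chr9:35053925-35072665, minus strand) had 10938 and 9781 fragments in DMSO and 13626 and 13463 with SGSS05-NS, or 436 and 419 CPM against 614 and 572 CPM. All treated values lay above the controls, with a log2 fold change of 0.47 ± 0.09. VCP fell just outside the threshold: it was not called by the quasi-likelihood test but was called by edgeR's likelihood ratio test, DESeq2 and limma voom, without the filter on low counts, and when SGSS05-NS replicate 2 was left out (0.52 ± 0.10).

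The paired cofactors were not called at the threshold of 0.001 under any of the 13 alternative settings. NPLOC4 (chr17:79523913-79615495, minus strand) had 3773 and 3735 fragments in DMSO and 4341 and 4663 with SGSS05-NS, or 150 and 160 CPM against 196 and 198 CPM, a log2 fold change of 0.34 ± 0.09. UFD1L (chr22:19437434-19466725, minus strand) had 1571 and 1427 fragments in DMSO and 1494 and 1537 with the compound, or 62.6 and 61.1 CPM against 67.3 and 65.3 CPM, a log2 fold change of 0.10 ± 0.09. For UFD1L the groups did not overlap, but the difference was about the size of its standard error. Its head-to-head neighbour on the other strand, CDC45, a replication factor, had 1684 and 1302 fragments in DMSO and 958 and 1126 with SGSS05-NS (−0.43 ± 0.11, adjusted p = 0.0078, not called). Without regard to strand UFD1L kept 70.7% to 72.8% of its fragments. On the plus strand, ENSG00000273212 (chr22:19444026-19444485) lies inside it and UFD1-AS1 (chr22:19435416-19437628) overlaps its end, and the part of each in this loss was not tested.

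Levels of different genes can be compared only per length, here as TMM CPM per kb of the gene's merged exons. In DMSO, UBB was the highest at 554 ± 56.2 CPM per kb (SD, n = 2), followed by VCP at 42.55 ± 1.22, ZFAND5 at 22.3 ± 2.11, NPLOC4 at 16.3 ± 0.704, UFD1L at 7.09 ± 0.124, ZFAND2A at 3.92 ± 0.288 and ZFAND2B at 3.44 ± 0.0328 CPM per kb. No neighbours in this order overlapped between libraries. The levels of all 7 genes come from the same 2 DMSO libraries, and the order was not tested. With SGSS05-NS, ZFAND2A reached 43.2 and 61.0 CPM per kb, which overlapped the values of VCP (57.0 and 61.1 CPM per kb), while ZFAND2B stayed last at 3.71 and 4.20 CPM per kb. Merged exons are far longer than the reference transcript of some of these genes, for example 10042 against 3746 bases for VCP and 8722 against 1791 bases for UFD1L. Lengths are those of GENCODE release 44, whereas fragments were counted on release 19, so some merged exons may not have been counted. Divided by the length of the MANE Select transcript (the reference transcript agreed between RefSeq and Ensembl), the DMSO levels were 930 CPM per kb for UBB, 114 for VCP, 35.4 for NPLOC4, 34.5 for UFD1L, 27.0 for ZFAND5, 10.2 for ZFAND2A and 8.83 for ZFAND2B. ZFAND5 was thus below both cofactors on that scale, and NPLOC4 and UFD1L overlapped (34.3 and 36.5 against 35.0 and 34.1 CPM per kb).

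**Figure D3:**
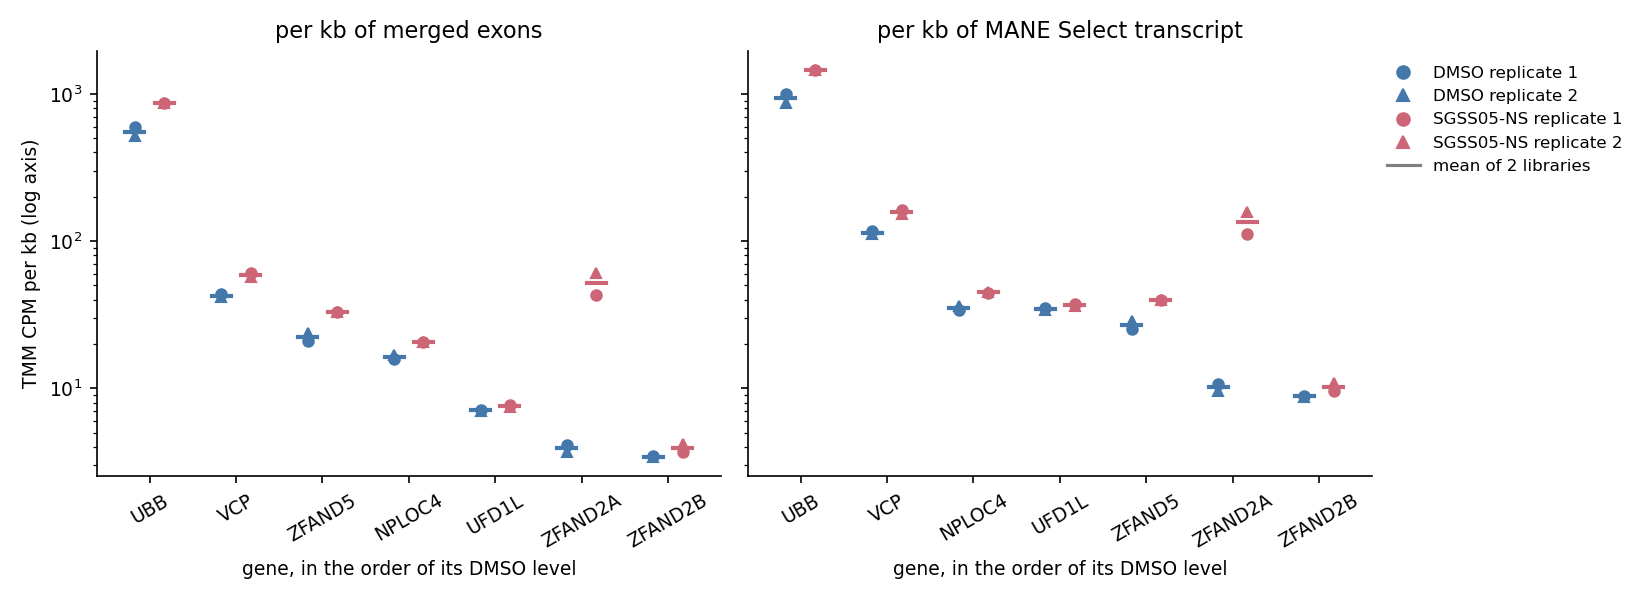
Levels per length of the 7 genes (TMM CPM per kb, log axis) in each library, per kb of merged exons (left) and per kb of the MANE Select transcript (right), in the order of the DMSO level. In both panels UBB and VCP are first and ZFAND2A and ZFAND2B last in DMSO, and with SGSS05-NS the values of ZFAND2A overlap those of VCP.

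The sequence before the MANE Select start of ZFAND2A and of ZFAND2B is shown as a contrast between a relative that was 13.3-fold higher and one that was not called. Each is the stretch of 300 bases before the start of the MANE Select transcript, read from GRCh37 on the gene's own strand, at chr7:1199833-1200132 (minus strand) and chr2:220071204-220071503 (plus strand). Both stretches lie inside the annotated span of their gene (chr7:1191707-1200395 and chr2:220059959-220074373). They are therefore not upstream of the outermost annotated start, and ZFAND2A-DT begins within the ZFAND2A stretch (chr7:1200010). For UBB only the first 30 bases of its window are shown (chr17:16284105-16284134, plus strand), since other UBB transcripts start inside it. The annotated gene already begins within these 30 bases, at chr17:16284112. Capitals mark matches to a pair of heat shock element units (GAANNTTC or TTCNNGAA, each its own reverse complement) or to the core of the antioxidant response element (TGACNNNGC, either strand).
UBB: gcaagGAAGTTTCcagagctttcgaggaag
ZFAND2A: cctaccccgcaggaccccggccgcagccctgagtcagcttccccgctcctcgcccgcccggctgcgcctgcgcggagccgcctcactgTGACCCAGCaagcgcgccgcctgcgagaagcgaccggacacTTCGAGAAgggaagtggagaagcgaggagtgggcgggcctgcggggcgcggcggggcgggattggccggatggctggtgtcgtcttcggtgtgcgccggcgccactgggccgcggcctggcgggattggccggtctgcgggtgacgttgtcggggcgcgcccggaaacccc
ZFAND2B: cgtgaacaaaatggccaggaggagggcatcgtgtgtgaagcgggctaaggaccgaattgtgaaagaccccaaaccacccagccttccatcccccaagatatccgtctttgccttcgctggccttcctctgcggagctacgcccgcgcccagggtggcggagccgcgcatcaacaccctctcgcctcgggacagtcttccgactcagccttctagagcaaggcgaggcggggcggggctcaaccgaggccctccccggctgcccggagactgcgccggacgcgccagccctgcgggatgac
The heat shock element is the site bound by HSF1 when proteins unfold, and the antioxidant response element the site bound by NRF2 (the product of NFE2L2). A heat shock pair lay 295 to 288 bases before the MANE Select start of UBB, across the position where the annotated gene begins (chr17:16284112). Another lay 171 to 164 bases before the MANE Select start of ZFAND2A, where an antioxidant core lay 212 to 204 bases before that start. ZFAND5 had antioxidant cores at 146 to 138 and 114 to 106 bases before its start, and VCP had 1 at 189 to 181 bases, whereas ZFAND2B and NPLOC4 had no match. Among the same windows of 18535 genes, 11.4% held a heat shock pair in either form (5.64% GAANNTTC, 6.61% TTCNNGAA) and 13.1% the antioxidant core. No match to a run of 3 alternating heat shock units (0.405% of all windows) or to the C/EBP-ATF composite element TGATGNAA (2.65%) was found in these 6 windows. A match is a string of letters in a window and was not measured as a binding site, and UFD1L was not searched.

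**Figure D4:**
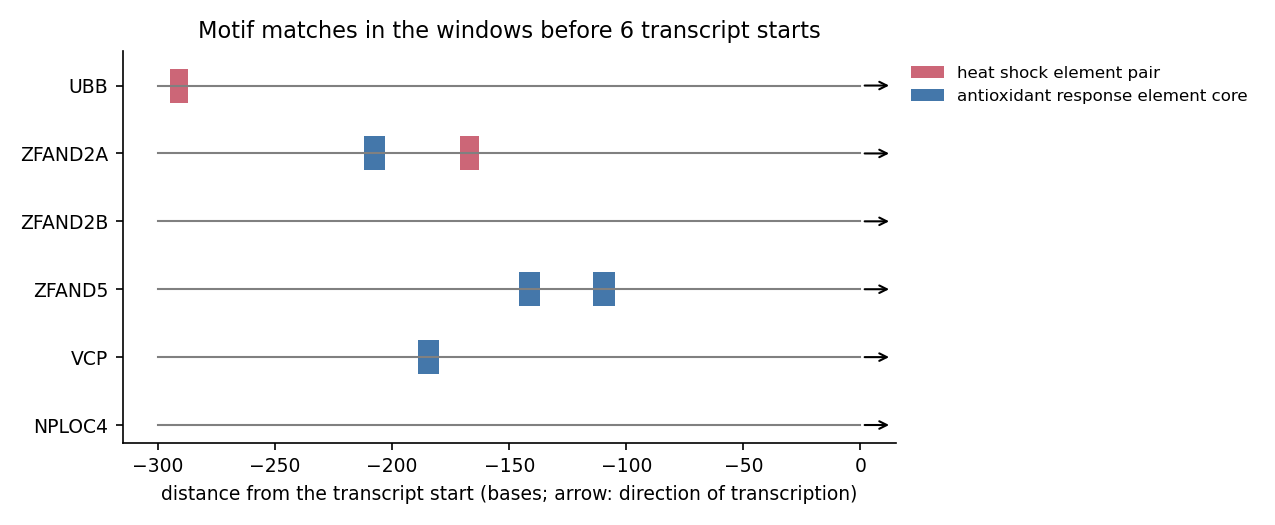
Positions of motif matches in the 300 bases before the MANE Select start of 6 genes, in bases from the start. Red bars are heat shock element pairs (UBB and ZFAND2A) and blue bars antioxidant response element cores (ZFAND2A, ZFAND5 and VCP), and ZFAND2B and NPLOC4 have none.

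The genes of the transcription factors that read these sites, HSF1, HSF2, NFE2L1 and NFE2L2, were not called. At an adjusted p-value under 0.05 (edgeR quasi-likelihood test), 3 of the 4 were higher and 0 lower. Of all 16468 genes tested, 3728 (22.6%) were higher and 3903 lower at that threshold. Only their RNA was measured, and the activity of the factors was not. NFE2L2 had 845 and 703 fragments in DMSO and 1315 and 1054 with SGSS05-NS (log2 fold change 0.71 ± 0.13, adjusted p = 0.0011), just outside the threshold, and was called in 8 of the 13 alternative settings. HSF1 (0.35 ± 0.11, adjusted p = 0.018) and HSF2 (0.28 ± 0.11, adjusted p = 0.044) had smaller differences, and the median of the 4 genes was 0.32.

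The counts of genes called in the lists that follow stand against 6.37% higher and 8.14% lower among all genes tested. Around VCP, 25 of 26 cofactor genes were tested, and 5 were called higher (20%) and 1 lower (4%), with a median log2 fold change of 0.08 against 0.01 for all genes. YOD1, a deubiquitinase that works with VCP, had 1308 and 1314 fragments in DMSO and 1961 and 2194 with SGSS05-NS (log2 fold change 0.75 ± 0.09, adjusted p = 7.3e-05). PLAA, a ubiquitin-binding cofactor, had 1958 and 2026 against 2850 and 3272 fragments (0.70 ± 0.10, adjusted p = 0.00015). FAF1, a UBX-domain cofactor, was the one that was lower, with 2519 and 2413 against 1115 and 1553 fragments (−0.81 ± 0.12, adjusted p = 0.00023).

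In the degradation pathway of the endoplasmic reticulum, which feeds VCP, 24 of 25 genes were tested, 3 were called higher (12.5%) and 0 lower, and the median was 0.12. HERPUD1, a scaffold of the membrane ligase complex that is induced when the endoplasmic reticulum is stressed, went from 739 and 642 fragments to 1229 and 1545 (1.09 ± 0.11, adjusted p = 1.5e-05). EDEM1, which hands misfolded glycoproteins to the pathway, went from 656 and 630 to 972 and 928 (0.65 ± 0.11, adjusted p = 0.00044).

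The enzymes that load and pass on ubiquitin had a median below 0. Of 30 E1 and E2 genes, all tested, 1 was called higher (3.33%) and 2 lower (6.67%), with a median of −0.16. UBE2E2 (568 and 455 against 192 and 260 fragments, −1.09 ± 0.15, adjusted p = 0.00013) and UBE2T (2541 and 2290 against 1538 and 1493, −0.59 ± 0.09, adjusted p = 0.00039), the latter an E2 of the Fanconi anaemia pathway, were lower. CDC34, the E2 of cullin ligases, was higher (1539 and 1319 against 1827 and 2153, 0.56 ± 0.10, adjusted p = 0.00072). It was not called without DMSO replicate 2, without SGSS05-NS replicate 2 (0.48 for each) or from counts without regard to strand (0.52), and UBE2T was not called with scaling by library size only (−0.55).

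Among receptors that bind ubiquitin chains, 12 of 13 genes were tested, 1 was called higher (8.33%) and 0 lower, with a median of 0.17. SQSTM1 (p62), which carries ubiquitin-tagged cargo to autophagy, went from 1435 and 1225 fragments to 7421 and 7304, a log2 fold change of 2.56 ± 0.10 (adjusted p = 9.1e-09). DDI2, a protease that acts on tagged proteins, had a log2 fold change of 0.47 ± 0.10 (adjusted p = 0.0022), and OPTN, another autophagy receptor, 0.33 ± 0.13 (adjusted p = 0.063). Of 9 deubiquitinases that recycle ubiquitin, all tested, 0 were called higher and 1 lower (11.1%), with a median of −0.13. USP13 was the one that was lower (2041 and 2135 against 1265 and 1157 fragments, −0.70 ± 0.11, adjusted p = 0.00026), a call lost with scaling by library size only (−0.67, adjusted p = 0.0012). UCHL5 (−0.29 ± 0.10, adjusted p = 0.027) and PSMD14 (0.21 ± 0.09, adjusted p = 0.073), both deubiquitinases of the proteasome, were not called.

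Across all lists, counting each gene once, 112 genes were tested, and 14 were called higher and 5 lower. Of the 106 that are not among the 7 genes described, 11 were higher (10.4%, against 6.37% of all genes) and 5 lower (4.72%, against 8.14%), and their median log2 fold change was 0.07. These shares were not tested against each other. The lists were written with earlier results of these libraries known.

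**Figure D5:**
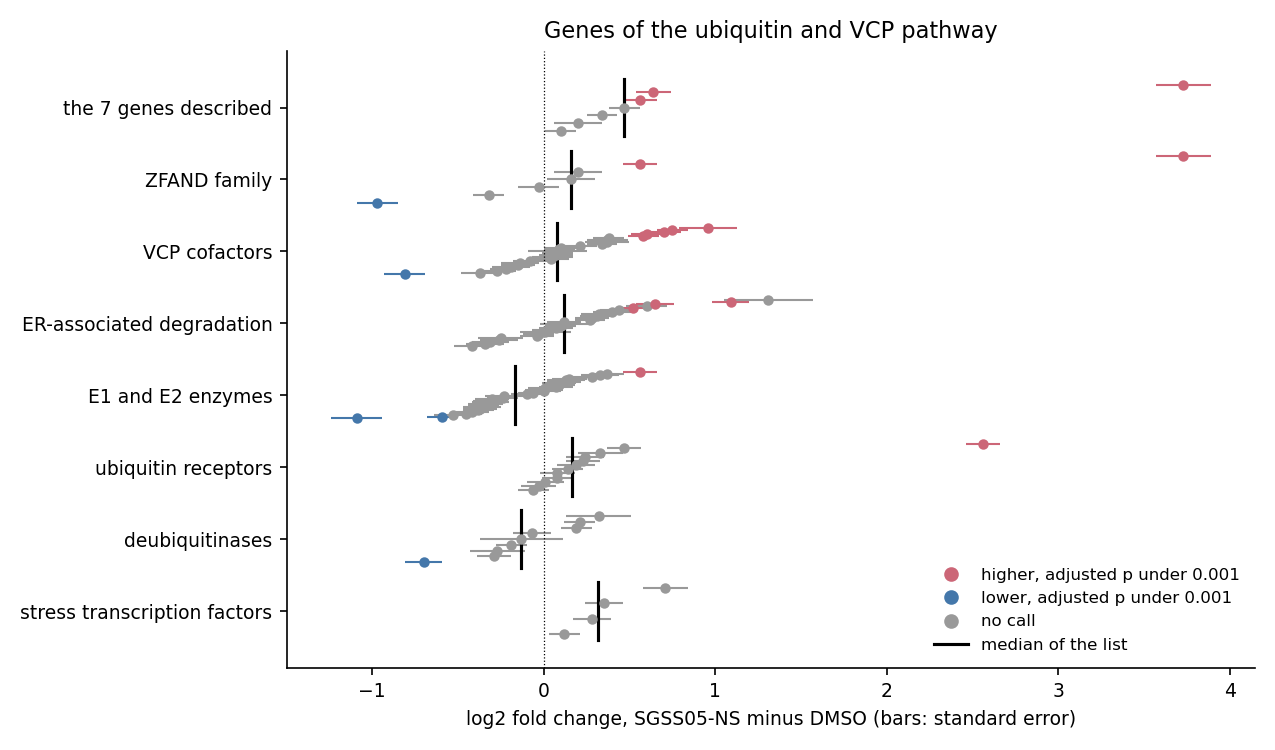
Log2 fold change, SGSS05-NS minus DMSO, with its standard error, for the 7 genes and for every tested gene of each list shown (a gene can stand in more than 1 list). Red and blue points passed an adjusted p under 0.001 as higher and lower, grey points did not, and black lines are medians. ZFAND2A at 3.73 and SQSTM1 at 2.56 lie far to the right of every other gene shown.

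The genes whose pattern over the 4 libraries was most like that of ZFAND2A and UBB were found by the Euclidean distance between log2 CPM values (prior count 2, which pulls low counts together), each taken relative to the gene's own DMSO mean. For ZFAND2A, which stood at 3.45 and 3.95 in the treated libraries on this scale, these were NR4A2 (distance 0.141, 3.46 and 3.95, but a fitted log2 fold change of 4.61 ± 0.47, larger than that of ZFAND2A), SESN2 (0.271), PLK3 (0.283), CSRNP1 (0.314) and DNAJB1 (0.410, 3.09 and 3.79). For UBB, at 0.64 in both treated libraries, they were KCTD7 (0.034), HSD17B14 (0.040), CAMLG (0.045), SLC2A11 (0.047) and ZNF175 (0.047). With 4 libraries and 2 conditions such a distance reflects mainly the size of the difference between conditions, and nothing is said from it about shared control.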

How the data were processed

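RNA from SY5Y cells was sequenced in 4 libraries, 2 for DMSO and 2 for SGSS05-NS, grouped and numbered by the sample labels. Per the labels and the study's methods, the authors used Trimmomatic 0.30 for trimming, STAR 2.4.2a for alignment to hg19 and edgeR 3.10.5. They deposited raw counts of fragments per gene, with no normalization, in 3 columns (unstranded, forward and reverse), and gene identifiers are those of GENCODE release 19. The reverse-strand column was used, since the forward column held 4.64% to 5.05% of stranded fragments. Summary rows were left out.

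Symbols, positions and exon lengths were taken by identifier from GENCODE release 44 on GRCh37, where 2282 of 57820 identifiers had no entry. For older symbols such as UFD1L, the RefSeq table of genes on GRCh38.p14 gave the current name and nothing else. The main test was the quasi-likelihood test of edgeR 4.0.16 (R 4.3.3), after filterByExpr and with TMM factors, adjusted by Benjamini-Hochberg over 16468 genes. The threshold of 0.001 is the study's. Its methods name edgeR's likelihood ratio test, which served here as an alternative, so the calls of the main test are not the study's. Standard errors are the size of the log2 fold change over the root of F. Levels are TMM-scaled CPM. DESeq2 1.42.0, limma 3.58.1 and blastn 2.17.0 served the alternatives and the search for near copies. The test was tried on simulated data. Protein sequences were not used here.

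The 7 genes and the lists were chosen with earlier results of these data known. The text names these genes, the tested ubiquitin and ZFAND genes, the 3 genes with the smallest p-values of each other list, the 5 genes most like ZFAND2A and UBB, KMT5A, and, after their values were seen, neighbours and pseudogenes. Some genes chosen by this rule are not reported here. Promoter windows were read from GRCh37 in place of the RefSeq table, whose windows for UBB, ZFAND5 and NPLOC4 lay at other starts.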

Additional observations from a re-analysis of the deposited data

Results flagged for a closer look

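In the counts of the strand opposite to each gene, which the comparisons did not use, ZFAND2A and ZFAND2B were higher in both SGSS05-NS libraries than in both DMSO libraries, with at least 10 fragments in each treated library. The ratio of mean opposite-strand CPM, SGSS05-NS to DMSO, was 2.64 at ZFAND2A (0.359 and 0.514 CPM in DMSO, 0.946 and 1.36 CPM with SGSS05-NS) and 2.46 at ZFAND2B (0.638 and 1.28 CPM in DMSO, 2.25 and 2.47 CPM with SGSS05-NS). As a share of all fragments at the gene, the opposite strand was lower with SGSS05-NS at ZFAND2A (0.951% and 0.969% against 3.67% and 5.71%) and higher at ZFAND2B (15.2% and 14.7% against 5.14% and 9.97%). These differences were not tested.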

How the results depend on the processing

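Of the 7 genes, 3 were called higher in the main test and 4 by edgeR's likelihood ratio test, DESeq2, limma voom and without the filter on low counts, VCP being the addition. Counts without regard to strand gave 1 (ZFAND2A) and an adjusted p under 0.05 gave 5. With 1 library left out, 2 to 4 were called. None was called lower in any of these settings. Over all genes, 1049 higher and 1341 lower became 2022 and 2267 with the likelihood ratio test, 2034 and 2570 without the filter, and 3728 and 3903 at 0.05. With 1 library left out they were 1037 to 1279 higher and 1322 to 1649 lower, in a fit where the lone library of a group is assumed to vary like the other group. Of the genes in the lists, 14 higher and 5 lower became 8 lower with the likelihood ratio test, 3 lower with library size only, 11 lower without the filter, and 33 higher and 22 lower at 0.05. With the replicate number as a block, 1759 genes were called higher and 2007 lower, with 3 of the 7 genes. The labels give only a replicate number, and whether same-numbered libraries were handled as pairs is not known. Deviations of same-numbered libraries correlated at 0.076 across 11412 genes. With 2 libraries per group the value for other-numbered libraries is the same with the sign reversed, so it cannot decide the question.

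Of 416 log2 fold changes recomputed for 32 named genes, 3 changed sign, all within their standard error: RPS27A at −0.0025 from counts without regard to strand and, with 1 library left out, RPS27A (−0.04 to 0.10, negative without SGSS05-NS replicate 2) and ZFAND1 (−0.18 to 0.10, positive without SGSS05-NS replicate 1). DMSO levels in CPM per kb depended on the length used. For the longest transcript they were 822 (UBB), 8.25 (ZFAND2A), 5.78 (ZFAND2B), 27.0 (ZFAND5), 70.8 (VCP), 12.3 (UFD1L) and 28.0 (NPLOC4). For the MANE Select transcript, a length added after seeing the data, they were 930, 10.2, 8.83, 27.0, 114, 34.5 and 35.4 in the same order. Without regard to strand they were 138 (UBB), 3.71 (ZFAND2B) and 5.04 (UFD1L), and with library size only 3.40 (ZFAND2B). Apart from the length used and the fragments dropped without strand, the cause of these shifts was not tested. Replicates differed by more than counting noise (chi-square per degree of freedom 8.76 in DMSO and 11.8 in SGSS05-NS), so the 2 libraries per group limit the precision more than depth does for abundant genes such as UBB and VCP.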
